A study of Mus musculus with 4 samples.

Results

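The genes described here are 36 genes of homologous recombination, the Fanconi pathway and the DNA damage checkpoint, with a few neighbours in mismatch, single-strand break and abasic site repair. They were chosen by name, for their known roles, out of 31729 genes with a value, and earlier results of these data were known. Their counts beside the share of all genes are therefore a description and not independent support. Of the 36 genes, 34 had a value and 31 had listed values high enough to be tested. Fanca and Fancm were not analysed here. Fancc was listed at 0 in every library, and Rad54l and Fancd2 were above 0 in 1 library only. One gene of the selection, written Claspn there, is listed under Clspn.

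The RNA came from stem cells of primary squamous cell carcinomas (SCCs) of mouse skin, a tumour of epidermal keratinocytes. All mice were C57BL/6 X FBV and every sample carried TetO-Hras + LV-rtTA3-TGF-beta reporter, that is, an Hras transgene under a doxycycline-responsive promoter together with a transactivator and a fluorescent reporter of transforming growth factor β (TGF-β) signalling, so both groups carried the transgene and the reporter. Lineage-negative cells bearing integrin α6 and CD44 were sorted by the mCherry reporter into a negative group, labelled as lacking TGF-β signalling, and a positive group, labelled as having it. There was 1 library of each group in experiment 1 and 1 in experiment 2, giving 4 libraries and n = 2 per group. The sources used here do not give the age, the number of tumours or animals per library, or the promoter of the transactivator. They also leave unsaid whether animals differed between experiments, so the p-values speak of the spread between these libraries, which may be technical.

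Homologous recombination repairs a broken chromosome from its sister. Nucleases trim the broken ends, BRCA2 and its partners prepare the exposed strand, and that strand invades the matching duplex. The Fanconi proteins unhook crosslinks between the strands and hand the break to this machinery, while ATM and ATR sense the damage and hold the cell cycle through CHEK2 and CHEK1. Most of these genes act in or after S phase, many are transcribed more in cycling cells, and in skin their loss is known for sensitivity to damage and for tumour risk.

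Values are FPKM (fragments scaled to transcript length and to the mapped depth of the library) and are written in the order negative 1, negative 2, positive 1, positive 2, where the number is the experiment. Each difference is that of log2(FPKM + 1), positive minus negative, with its SE after ±, a scale on which low genes change less than in FPKM. Aligned bases, recovered from the ratio of coverage to FPKM, came to 3.14 to 3.76 gigabases per library. For the members' transcripts of at least 1 FPKM, the deposited confidence interval reached 12.2% to 15.2% of the value to either side (median per library). It is an interval within 1 library and does not cover the spread between libraries.

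Estimates for the chosen genes were mostly lower in reporter positive cells. Rbbp8, Timeless and Msh6, each above 0 in every library, fell 2.80-fold, 2.57-fold and 2.01-fold in mean FPKM. Psmc3ip and Hmces also passed the test as lower, but both were listed at exactly 0 in the positive libraries, and those zeros are examined below. In all, 5 of 31 tested genes passed an adjusted p of 0.05 as lower (limma, Benjamini-Hochberg over 11973 genes), where 2.71% of all genes tested did, and 0 passed as higher, where 2.68% did. Psmc3ip and Hmces reached the minimum for testing, 1 FPKM in 2 libraries, through the negative libraries only, which fixed their lower direction. Of the 29 members above 0 in every library 3 passed as lower, against 2.46% of all such tested genes. An unadjusted p under 0.05 was found for 16 of the 31, against 25.8% of all genes, and each of these 16 had a lower estimate.

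The shift was spread over the selection. The estimate was below 0 for 30 of 31 genes, where 68.9% of all genes tested were, with Atr as the exception. Both positive libraries lay below both negative libraries for 26 of 31 genes (42.7% of all genes), and for 0 they lay above (15.2% of all genes). The groups overlapped for Fancg, Blm, Atm, Mre11a and Atr. The median difference was -0.52, against -0.18 for all genes tested. In experiment 1 alone the medians were -0.37 and -0.14, and in experiment 2 they were -0.69 and -0.23. The difference was below 0 in both experiments for 29 of 31 genes, against 54.3% of all genes, the exceptions being Atr and Fancg, which were 0.28 and 0.02 above 0 in experiment 1. Brca2, Bard1, Brip1, Psmc3ip and Hmces reached 1 FPKM in the negative libraries only. The filter of 1 FPKM in 2 libraries therefore fixed their lower direction in the counts of this paragraph. The shares of all genes include genes of this kind too.

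These directions are those of the deposited scaling, which puts the median of all genes below 0. Median-of-ratios scaling put that median at 0.01, the members' median at -0.38 and 29 of 31 estimates below 0, with Mre11a joining Atr above it. Under that scaling 3 genes passed, Hmces, Psmc3ip and Timeless, while Rbbp8 (adjusted p = 0.0541) and Msh6 (0.0548) did not. As deposited, 28 of 31 members lay below the median of all genes.

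With the experiment as a block, 9 of 31 genes passed as lower, where 7.43% of all genes did, and 0 passed as higher (4.45% of all genes). The block added Topbp1, Exo1, Parp1 and Clspn. Of the 29 members above 0 in every library, 3 passed as lower without the block and 7 with it, where 2.46% and 7.28% of all tested genes above 0 in every library did. When the fit kept only genes above 0 everywhere, 7 of 29 passed (6.80% of all genes), and 14 of 29 with the block (20.6% of all genes). Each single library weighed on the calls, those of all genes as well as those of the members. Without any one of the 4 libraries the members' median stayed between -0.48 and -0.62. Those 4 fits borrow the spread of a group's single library from the group with both.

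**Figure D1:**
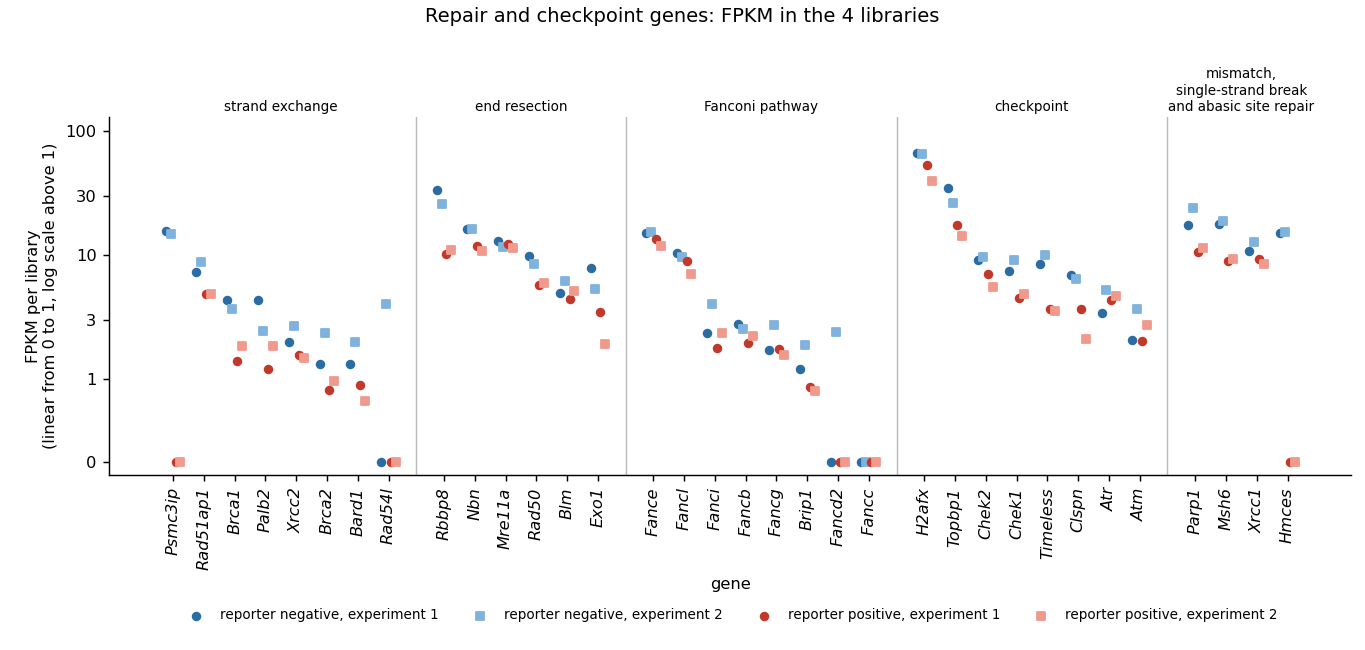
FPKM of the 34 chosen genes with a value, 1 point per library, grouped by role and ordered by mean FPKM within a role; the axis is linear from 0 to 1 and logarithmic above 1. Red points (reporter positive) lie below blue points (reporter negative) for most genes, Psmc3ip and Hmces sit at 0 in both positive libraries, and Rad54l and Fancd2 are above 0 in negative 2 only.

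Promoters are shown for the members above 0 in every library with the smallest p and an entry in the RefSeq promoter table (build GRCm38.p6), to show the sequence at the starts of genes with the strongest statistics. Each run is the 250 bases before the start on the gene's strand, with any searched motif in capitals.

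Timeless, chr10:128237816-128238065, plus strand: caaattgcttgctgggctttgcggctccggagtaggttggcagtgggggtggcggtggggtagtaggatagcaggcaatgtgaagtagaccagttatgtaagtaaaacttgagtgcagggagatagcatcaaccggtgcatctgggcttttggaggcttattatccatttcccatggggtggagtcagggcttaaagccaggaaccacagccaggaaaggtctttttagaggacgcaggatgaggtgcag

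Msh6, chr17:87974800-87975049, plus strand: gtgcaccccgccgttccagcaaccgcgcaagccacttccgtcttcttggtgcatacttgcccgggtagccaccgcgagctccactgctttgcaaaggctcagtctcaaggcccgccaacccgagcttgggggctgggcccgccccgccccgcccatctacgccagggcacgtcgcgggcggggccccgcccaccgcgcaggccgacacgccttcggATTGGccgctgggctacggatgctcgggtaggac

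Brca1, chr11:101551956-101552205, minus strand: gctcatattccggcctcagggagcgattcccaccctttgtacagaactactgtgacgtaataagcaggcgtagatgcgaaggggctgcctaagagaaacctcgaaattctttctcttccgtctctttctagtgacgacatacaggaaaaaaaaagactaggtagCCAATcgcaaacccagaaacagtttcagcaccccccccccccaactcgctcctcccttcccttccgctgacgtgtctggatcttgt

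The searched letters were TTTGGCGC, TTTCCCGC, TTTCGCGC and TTTGCCGC for the E2F motif, TTTGAA for the CHR motif and CCAAT for the NF-Y motif, on both strands, and no motif contains another. E2F, the CHR and NF-Y are known for the control of cell-cycle genes. The Msh6 promoter holds CCAAT on the minus strand, starting 34 bases before the start, and the Brca1 promoter holds it on the plus strand, 86 bases before. The Timeless window holds none of the letters. Of the 31 tested genes 25 had a promoter entry, and Exo1, H2afx, Nbn, Rad50, Rbbp8 and Xrcc2 had none. E2F letters were found in 5 of the 25 (Bard1, Brca2, Chek2, Fancg and Topbp1), that is 20%, against 1.92% of 27025 promoters and 3.71% of those of tested genes. NF-Y letters were found in 13 of 25, or 52%, against 34.5% and 37.2%. CHR letters were found in 1 of 25, Bard1, or 4%, against 16.3% and 10.9%. A match is a description of letters and not a binding site.

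Among the 8 genes of strand exchange, 7 were tested and 1, Psmc3ip, passed as lower, where 2.71% of all genes tested did. Psmc3ip (chr11:100953137-100956750, mm9), which encodes HOP2, a helper of strand exchange, was at 15.7, 14.8, 0 and 0 FPKM. The filter on low values fixed its direction. The other tested genes did not pass, and in each of them both positive libraries were below both negative ones, as in 42.7% of all genes tested. For Brca2 and Bard1 the filter on low values fixed that order. Brca1, the ubiquitin ligase that steers breaks into recombination, was at 4.35, 3.72, 1.41 and 1.85 FPKM, a difference of -0.94 ± 0.21 (limma adjusted p = 0.0755, and 0.0572 with the block). It passed only in the fits without genes listed at 0. Transcripts assembled from the reads held 69.5% of Brca1 in negative 1. With reference transcripts only, the difference of Brca1 was -0.488 (limma adjusted p = 0.59). Palb2, which bridges BRCA1 and BRCA2, was at 4.36, 2.44, 1.21 and 1.85 FPKM, and its experiments differed in size, with -1.28 in experiment 1 and -0.27 in experiment 2.

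Rad51ap1, a cofactor that stimulates strand invasion, had the highest level among the members of this role above 0 everywhere, 8.11 ± 1.10 in negative and 4.89 ± 0.02 FPKM in positive cells (SD, n = 2). The smallest difference was that of Xrcc2, which acts in strand exchange, at -0.39 ± 0.21 (limma adjusted p = 0.305). Brca2, the central mediator of strand exchange, and Bard1, the partner of BRCA1, were low in all libraries (0.74 to 2.35 FPKM), where the scale with a pseudocount of 1 compresses differences. Rad54l, a motor protein that remodels the invaded duplex, was at 0, 4.02, 0 and 0 FPKM and was not tested. Its zeros are taken up below.

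Of the 6 genes of end resection, 1 fell without the block and 2 fell with it, where 2.71% and 7.43% of all genes tested did. Rbbp8, which encodes CtIP, the protein that starts resection with the MRE11 complex, was at 33.8, 26, 10.3 and 11.1 FPKM. Both positive values lay far below both negative ones, and the difference was -1.39 ± 0.19 (limma adjusted p = 0.0310, and 0.0184 with the block). Exo1, a nuclease that extends the trimmed end, was at 7.91, 5.36, 3.49 and 1.92 FPKM. Its levels were lower in experiment 2 than in experiment 1 in both groups, and its difference of -1.06 ± 0.31 passed only with the block (limma adjusted p = 0.121 without and 0.0349 with it).

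Estimates for the MRE11 complex ranged from near 0 to -0.57. Nbn, the subunit that recruits ATM, was at 16.1, 16.4, 11.9 and 10.8 FPKM, and Rad50, the tethering subunit, at 9.91, 8.58, 5.75 and 6.00 FPKM; neither passed (limma adjusted p = 0.137 and 0.133). Mre11a, the nuclease subunit, was at 12.9, 11.6, 12.3 and 11.4 FPKM. Its groups overlapped, its difference was -0.05 ± 0.16 (limma adjusted p = 0.875), and its sign turned under other scalings. Blm, the helicase that unwinds ends and dissolves joined duplexes, also overlapped between groups (-0.19 ± 0.20, limma adjusted p = 0.608).

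The Fanconi genes had the median nearest to that of all genes among the roles. None of the 6 tested passed without or with the block, none had an unadjusted p under 0.05, and their median difference was -0.28. Fanci, which is ubiquitinated together with FANCD2, and Brip1, the helicase partner of BRCA1, had the most negative estimates, -0.44 ± 0.28 and -0.42 ± 0.23. Fance, a core complex subunit that binds FANCD2, had the highest level, 15.2, 15.5, 13.6 and 11.9 FPKM, and the least negative estimate, -0.25 ± 0.16 (limma adjusted p = 0.380). Fancl, the ubiquitin ligase of the core complex, differed by -0.29 ± 0.19, and Fancb and Fancg, other core subunits, by -0.26 ± 0.19 and -0.26 ± 0.24. Fancg was at 1.72 in negative 1 and 1.76 FPKM in positive 1, so the groups overlapped. Fancd2, the protein that the pathway activates, was at 0, 2.40, 0 and 0 FPKM, and Fancc, a core subunit, was listed at 0 throughout. These zeros are taken up below.

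Of the 8 checkpoint genes, 1 fell without the block and 3 with it, where 2.71% and 7.43% of all genes tested did. Timeless, which holds the replication fork together with TIPIN and supports ATR signalling, was at 8.56, 10.1, 3.71 and 3.54 FPKM, a difference of -1.16 ± 0.19 (limma adjusted p = 0.0426, and 0.0293 with the block). Clspn, the adaptor through which ATR phosphorylates CHEK1, was at 6.98, 6.45, 3.68 and 2.13 FPKM, and its difference of -1.01 ± 0.26 had a limma adjusted p of 0.0958, and of 0.04996 with the block. Topbp1, the activator of ATR, was at 34.8, 26.1, 17.4 and 14.2 FPKM, a difference of -0.90 ± 0.21 (limma adjusted p = 0.0813, and 0.0266 with the block). For all 3 genes both positive libraries were below both negative ones, as in 42.7% of all genes tested. For Topbp1 that order rests on an assembled transcript without a strand, whose gene is less certain. It held 57.4% of the 34.8 FPKM of Topbp1 in negative 1. With such transcripts left out, negative 1 lay below positive 1 for Topbp1, so its groups overlapped. In the fit without them its difference was -0.31 (limma adjusted p = 0.566, and 0.487 with the block). No other tested member had such a transcript above 0, and the difference of Clspn stayed at -1.01 in that fit, with an adjusted p of 0.0558 with the block.

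Estimates for the kinases ATR and ATM were near 0. Atr, the kinase of stalled forks, was at 3.44, 5.29, 4.39 and 4.67 FPKM, and Atm, the kinase of double-strand breaks, at 2.06, 3.69, 2.02 and 2.73 FPKM. In both genes the groups overlapped, and the differences were 0.07 ± 0.24 and -0.17 ± 0.29 (limma adjusted p = 0.893 and 0.744). Chek1 and Chek2, the kinases that they activate, differed by -0.70 ± 0.19 and -0.52 ± 0.19 without passing (limma adjusted p = 0.109 and 0.182). H2afx, whose histone product is phosphorylated around breaks, had the highest level of all members, 66.5, 65.0, 53.2 and 39.8 FPKM, and did not pass (-0.51 ± 0.18, limma adjusted p = 0.171). Its deposited FPKM lay above the upper bound of its own confidence interval in all 4 libraries, which was seen for no other member transcript of at least 1 FPKM.

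Of the 4 genes of mismatch, single-strand break and abasic site repair, Msh6 and Hmces passed without the block, and Parp1 joined them with it. The shares of all genes tested that passed as lower were 2.71% and 7.43%. Msh6, which recognises mispaired bases, was at 17.9, 19.0, 9.06 and 9.32 FPKM. The values within a group were close, and the difference was -0.93 ± 0.15 (limma adjusted p = 0.0434, and 0.0291 with the block). Parp1, the sensor that marks strand breaks with poly(ADP-ribose), was at 17.6, 24.2, 10.6 and 11.4 FPKM, a difference of -0.85 ± 0.20 (limma adjusted p = 0.0862, and 0.0418 with the block). Xrcc1, the scaffold of single-strand break repair, did not pass (-0.37 ± 0.18, limma adjusted p = 0.269). Hmces (chr6:87863929-87886623, mm9), which shields abasic sites in single-stranded DNA, was at 15.1, 15.4, 0 and 0 FPKM. The filter on low values fixed its direction.

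**Figure D2:**
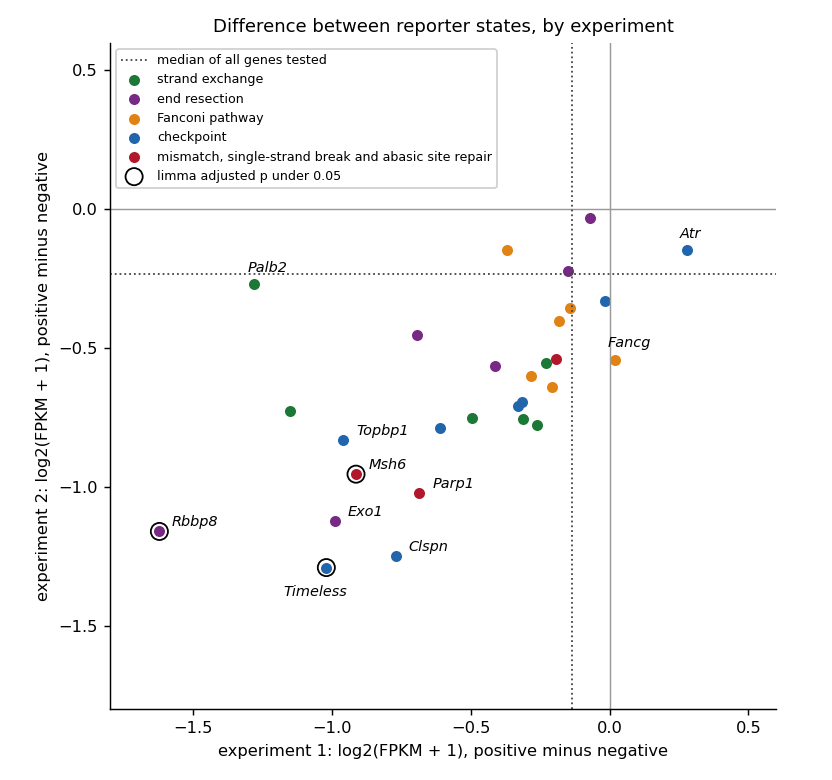
Difference between reporter states in experiment 1 (x axis) and experiment 2 (y axis) on the log2(FPKM + 1) scale, for the 29 members above 0 in every library, coloured by role; dotted lines are the medians of all genes tested. Rbbp8, Timeless and Msh6 (circled) lie low in both experiments, and Atr and Fancg lie right of 0 in experiment 1.

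The zeros of Psmc3ip and Hmces were set against the coverage in the files. In both positive libraries the read coverage of every transcript of both genes was listed as 0 as well, with upper bounds of at most 0.12 FPKM for Psmc3ip and 0.16 FPKM for Hmces. The same files mark 3 of 4 Psmc3ip transcripts in positive 1 and 4 of 4 in positive 2 as fully supported by reads, and 4 of 5 Hmces transcripts in each. In the negative libraries 4 of 4 Psmc3ip transcripts carried the mark, and 5 of 5 and 4 of 5 for Hmces. The abundance and the read mark therefore disagree within the positive files. The untested members listed at 0 showed this in part. Fancd2 had 1 of 8 transcripts marked in negative 1, positive 1 and positive 2, each with a coverage of 0. Rad54l had 1 of 6 marked in negative 1 and positive 1 but 0 in positive 2, and Fancc had 0 of 19 marked in every library.

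The same conflict was common among listed zeros. Of tested genes listed at 0 in a library, 64.5% to 70.3% had a transcript marked as fully supported there, against 3.12% to 3.85% of genes listed at 0 that were also under 0.1 FPKM in every other library, and 87.4% to 89.6% of tested genes of at least 5 FPKM. Zeros of this kind were not one-sided: 11 tested genes, Psmc3ip and Hmces included, were at 0 in both positive libraries and at least 10 FPKM in both negative ones, and 10 showed the opposite. Psmc3ip overlaps Mlx, a gene on the other strand, by 385 bases, and Mlx was at 22.5, 25.3, 42.7 and 41.4 FPKM. The part of that overlap in the zeros was not tested. For these reasons Psmc3ip and Hmces are described as listed at 0, without a fold change.

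Where the reads of a gene were placed also differed between libraries. Transcripts assembled from the reads, rather than taken from the reference annotation, held 25.7%, 7.26%, 22.0% and 18.9% of the members' summed FPKM. For Msh6 they held 66.4%, 0%, 100% and 48.1%, for Clspn 64.0%, 35.1%, 100% and 100%, and for Atm 100% in every library, while Parp1 and H2afx lay on reference transcripts throughout. With reference transcripts only, the calls of Rbbp8, Timeless and Msh6 were lost (limma adjusted p = 0.132, 0.127 and 0.346), and the estimates were -1.32, -1.36 and -2.30. The last rests on a reference value of 0 in positive 1. Most calls over all genes were lost in that fit too, with 95 of 11246 genes passing in either direction, against 646 of 11973 in the main fit.

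**Figure D3:**
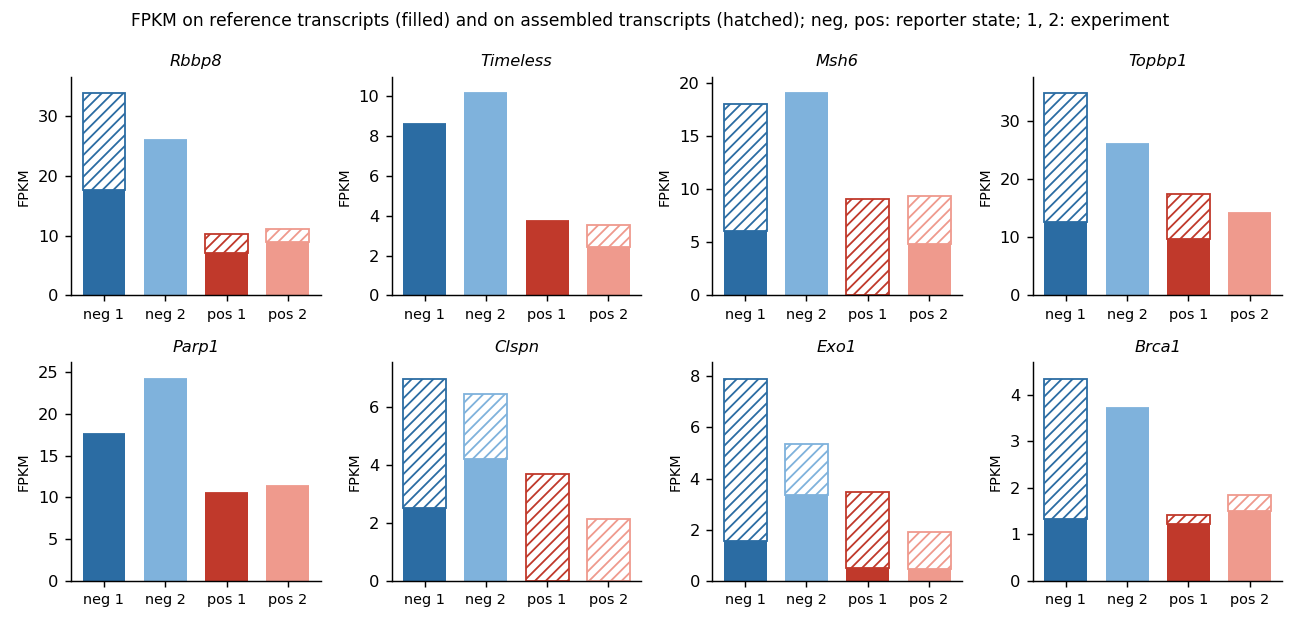
FPKM of 8 members in each library (bars from 0), split into the part on reference transcripts (filled) and on assembled transcripts (hatched). Parp1 is on the reference form in all 4 libraries, whereas the whole of Msh6 in positive 1 and of Clspn in both positive libraries is on assembled forms.

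The other genes of these pathways had medians nearer to that of all genes, and few passed. Of 59 tested genes in lists of other recombination, Fanconi and checkpoint genes, 0 passed as lower and 1 as higher (limma). Of all genes tested, 2.71% and 2.68% did. An unadjusted p under 0.05 was found for 14 of the 59, against 25.8% of all genes tested. Their medians by list were -0.32, -0.24 and -0.42. With the block 3 passed as lower, Tipin and Mdc1 among them, where 7.43% of all genes tested did. Tipin, the partner of Timeless, was at 57.5, 49.6, 34.7 and 26.8 FPKM (limma adjusted p = 0.0826, and 0.0283 with the block), and Mdc1, the reader of phosphorylated H2AX, at 4.38, 5.32, 1.48 and 2.49 FPKM (0.0958 and 0.0453). The gene that passed as higher was Zswim7, which acts in recombination and was at 0, 0, 3.06 and 4.47 FPKM. Its call rests on listed zeros. In negative 2 its only transcript had a coverage of 0 but was marked as fully supported by reads, the conflict described for Psmc3ip and Hmces. In negative 1 it was not marked.

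In the other repair pathways 0 of 12 end joining genes passed (3 at an unadjusted limma p under 0.05, against 25.8% of all genes tested). Of 6 further mismatch repair genes 0 passed without the block (3 at an unadjusted p under 0.05). Of 23 genes of base and nucleotide excision repair 2 fell, where 2.71% of all genes tested did. Ung, which removes uracil from DNA, was at 17.2, 16.8, 5.63 and 4.24 FPKM (-1.61 ± 0.19, limma adjusted p = 0.0252), and Ddb2, which finds ultraviolet damage, at 5.42, 7.38, 1.99 and 1.83 FPKM (-1.33 ± 0.22, limma adjusted p = 0.0443).

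Genes of the cell cycle were lower in the same libraries. Of 26 tested genes of DNA replication and G1/S, 6 fell without the block and 12 with it, and 0 rose, with a median difference of -0.86. Among all genes tested, 2.71% fell without the block and 7.43% with it. Pcna, the sliding clamp, was at 136, 139, 74.7 and 67.3 FPKM, and Slbp, the histone messenger binding protein, at 35.9, 31.8, 15.2 and 14.9 FPKM (limma adjusted p = 0.0336 and 0.0304). Of 26 mitotic genes 1 fell, Ccnb2, a cyclin of mitosis, at 48.3, 45.8, 24.4 and 25.0 FPKM (limma adjusted p = 0.0352), 4 fell with the block, adding Mki67, Top2a and Bub1b, and the median was -0.48. The part of these genes in the members' differences was not tested, and in bulk libraries fewer cells of a type and less RNA per cell cannot be told apart.

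**Figure D4:**
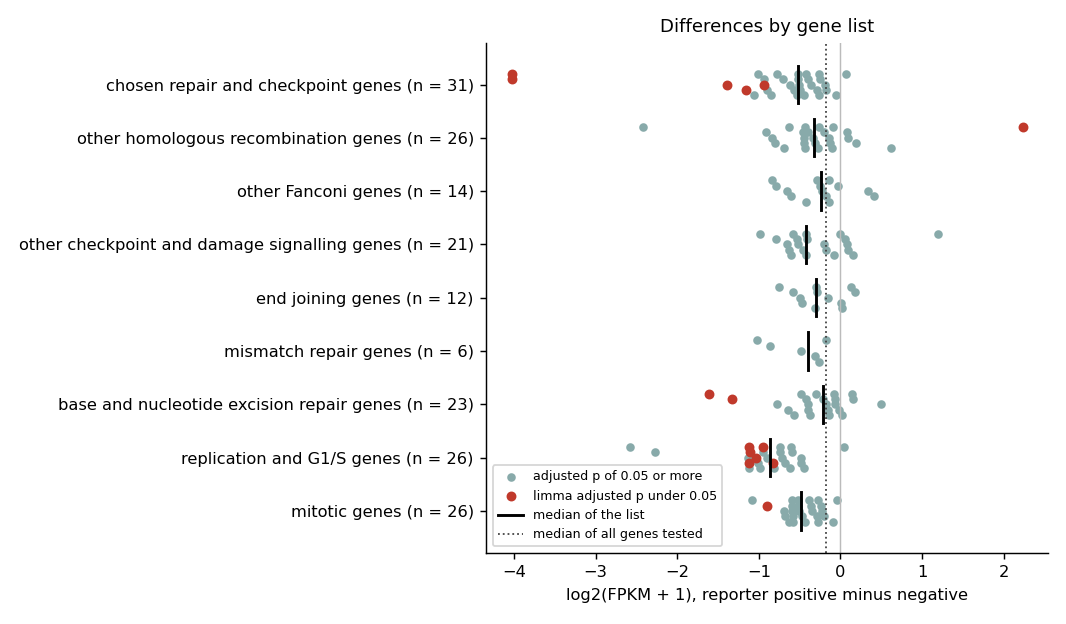
Difference between reporter states on the log2(FPKM + 1) scale for each tested gene of the chosen set and of 8 other lists; black bars are list medians, the dotted line is the median of all genes tested, and red points passed a limma adjusted p of 0.05. The chosen genes have a median of -0.52, the replication genes -0.86 and the mitotic genes -0.48, and the points near -4 are Psmc3ip and Hmces, listed at 0 in both positive libraries.

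Some epithelial and fibroblast markers differed between the groups too. The 8 epithelial and sort markers with a value summed to 3081 and 3198 FPKM in negative and 3644 and 3779 FPKM in positive libraries. The higher sum in positive cells rests on Sfn, which encodes stratifin of keratinocytes, at 1648, 1521, 2883 and 2946 FPKM, while 5 of 8 estimates were below 0, with a median of -0.72. Col17a1, a collagen of basal cells, fell from 723 and 775 to 259 and 250 FPKM (limma adjusted p = 0.0165). With the block Itga6, Epcam, Trp63 and Itgb4 passed as lower too, and Sfn as higher. Of these Itga6, the sorted integrin, was at 331, 410, 181 and 205 FPKM, and Cd44, the other sort marker, was at 81.5, 112, 88.0 and 128 FPKM, while Krt5 and Krt14 were not analysed here. The 9 fibroblast markers summed to 132 and 265 FPKM in negative and 18.1 and 40.5 FPKM in positive libraries. Postn made up most of the sum in the negative libraries (89.7 and 191 FPKM) but not in the positive ones (4.78 and 11.0 FPKM). Of 7 tested, 2 fell, Postn and Thy1 (2.71% of all genes tested), and 5 did not pass. The 11 leukocyte markers summed to 8.56 to 19.3 FPKM with 7 under 1 FPKM in every library, the 7 endothelial markers to 3.53 to 14.3 FPKM, and the 6 melanocyte markers to 0.51 to 3.34 FPKM with Pmel at 0 throughout. None of the tested leukocyte and endothelial markers passed, and no melanocyte marker was tested. Of 12 tested genes of keratinocyte differentiation 8 rose (2.68% of all genes tested), with a median of 2.56. There 1 passed as lower, Dsc1, at 4.57, 6.41, 0 and 0 FPKM, and its zeros were not set against the read mark. The part of these lists in the members' differences was not tested.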

How the data were processed

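Libraries were prepared from RNA of the sorted cells with an mRNA kit from Illumina, per the labels. Titles give each sample's reporter state and experiment number. TopHat alignment and Cufflinks estimation on mm9 were done by the authors, per the submitters' processing notes; the sources used here give neither versions nor the annotation release. The deposited values are FPKM per transcript, with a confidence interval, coverage and a mark of full read support, per the file headers. No count model applies to FPKM, and read numbers are unknown. Aligned bases are the median ratio of coverage to FPKM over transcripts of at least 2000 bases and above 10 FPKM.

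Transcripts of at least 200 exonic bases were named by identifier through GENCODE M21 (names only, since its build differs) or, if unnamed or assembled, by the gene whose exons held at least 50% of them; without a strand, both strands were tried. FPKM was summed per gene (Python 3.11.15, pandas 2.3.3). The 11973 genes that reached 1 FPKM in 2 or more libraries entered limma 3.58.1 in R 4.3.3 (lmFit, eBayes with trend, log2(FPKM + 1), two-sided, Benjamini-Hochberg adjustment, threshold 0.05) after the script was tested on simulated data. The smallest p of an exact permutation of 2 against 2 libraries is 0.333. Because titles number the experiment, a fit with it as a block was run beside; the experiment differences of the groups correlated across genes with Pearson's r 0.172, and 0.31 for genes above 0 in every library (genes are not independent replicates).

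All 36 members are accounted for. Values in every library are given for members that passed without or with the block, were listed at 0, or were among the 3 highest, and for up to 3 genes of other lists by smallest p; values of Brca1, Palb2, Nbn, Rad50, Mre11a, Atr, Atm, Fance and Mlx were added after they were seen. Members and lists were chosen with earlier results of these data known. Alternatives are given in the closing section; 2 of 17 were added after seeing the data. Some genes of the lists are not reported here.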

Additional observations from a re-analysis of the deposited data

How the results depend on the processing

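The count of chosen genes that passed as lower, 5, did not change with a pseudocount of 0.1 or 5, a minimum of 5 FPKM, quantile normalization, robust variance estimation, or leaving out assembled transcripts without a strand (an alternative chosen after seeing the data); with that last choice and the replicate block 7 passed. It was 0 with no filter on low values, 3 under median-of-ratios scaling, 2 with reference transcripts only, 9 with the replicate block and 14 with the block and genes listed at 0 left out. Calls over all genes, in either direction, moved too. They were 646 of 11973 in the main fit, 4 of 20040 with no filter and 624 of 11973 under median-of-ratios scaling. With reference transcripts only they were 95 of 11246, with the block 1422 of 11973, and with the block and zeros left out 3322 of 11504. Leaving out 1 library lowered the count, for all genes as well. No gene passed as higher in any of the 17 alternatives. The median of the members ranged from -0.71 (pseudocount 0.1) to -0.33 (quantile normalization).

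Of the other repair and checkpoint genes 0 passed as lower, but 1 did with a minimum of 5 FPKM, 1 with robust variance estimation and 3 with the replicate block. With the block and strandless transcripts left out 2 did, with genes listed at 0 left out 5, and with those left out and the block 16. Calls over all genes, in either direction, were 644 of 8775 with a minimum of 5 FPKM and 1002 of 11973 with robust variance estimation. They were 1250 of 11969 with the block and strandless transcripts left out, and 1262 of 11504 with genes listed at 0 left out. The totals for the block without and with zeros left out are given above. The 1 that passed as higher was lost (0) with no filter, with a minimum of 5 FPKM, with reference transcripts only, with genes listed at 0 left out without or with the block, and 0 to 1 passed without 1 library.

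Signs turned for estimates near 0: Mre11a to 0.149 (median-of-ratios scaling) and 0.131 (quantile normalization), Blm to 0.0307 and Atm to 0.0484 (quantile normalization), and Fancb to 0.0517 and Atr to -0.138 (reference transcripts only). Without 1 library the estimate ranged from -0.121 to 0.0191 for Mre11a, from -0.482 to 0.133 for Atm and from -0.185 to 0.316 for Atr. The cause was not tested. With 2 libraries per group, a difference short of the threshold may still exist, and no depth in reads is known.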
